A study of Mus musculus with 36 samples.

Results

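The 10 genes described here encode surface molecules and regulators that set how strongly a T cell responds to antigen: Cd86, Cd80, Icosl and Cd274 on the presenting side, Cd28, Icos, Ctla4 and Pdcd1 on the T cell, and Foxp3 and Il2ra of regulatory T cells. They were chosen by name, and every probe set that the platform annotation ties to 1 of these genes alone was taken, which gave 19 of the 45037 probe sets that are not manufacturer's controls and 10 of 18193 named genes. The measurements are of spleen RNA from 36 F2 mice aged 4 months, 18 with arthritis and 18 without, with 1 Affymetrix mouse expression array per mouse. The series title speaks of arthritic mice that lack the interleukin 1 receptor antagonist, and the stated purpose was to find subpopulations among them. The labels name only arthritic or non-arthritic, spleen and the age, and give no genotype, strain, sex or treatment for either group, so these sources do not say whether the non-arthritic mice carry the same deficiency. A whole spleen was used, so fewer cells of a type and less RNA per cell cannot be told apart in any value below.

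A T cell needs a signal beside its antigen receptor to become fully active, and Cd28 gives it when it binds Cd80 or Cd86 on a dendritic cell, macrophage or activated B cell. Ctla4 binds the same ligands with higher affinity and restrains the response, Icos is a relative of Cd28 that binds Icosl and supports help to B cells, and Pdcd1 (PD-1) is an inhibitory receptor engaged by Cd274 (PD-L1). Foxp3 is the transcription factor that defines regulatory T cells, which carry much Ctla4 and Il2ra, the high-affinity chain of the interleukin 2 receptor. In the reference annotation Cd28, Ctla4, Icos and Pdcd1 lie on chromosome 1, Cd80 and Cd86 on chromosome 16, Il2ra on chromosome 2, Icosl on chromosome 10, Cd274 on chromosome 19 and Foxp3 on chromosome X.

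Promoters were in the RefSeq table for 7 of the 10 members. The windows of Icosl, Cd274 and Cd80 are shown because Cd274 varied across spleens together with each of the other two, as given below. Each runs 5′ to 3′ from 250 bases before the annotated start to 50 bases after it on assembly GRCm38.p6, all on the plus strand, with Icosl at chr10:78069118-78069417, Cd274 at chr19:29367188-29367487 and Cd80 at chr16:38458683-38458982. Capitals mark matches to the motifs searched.
Icosl: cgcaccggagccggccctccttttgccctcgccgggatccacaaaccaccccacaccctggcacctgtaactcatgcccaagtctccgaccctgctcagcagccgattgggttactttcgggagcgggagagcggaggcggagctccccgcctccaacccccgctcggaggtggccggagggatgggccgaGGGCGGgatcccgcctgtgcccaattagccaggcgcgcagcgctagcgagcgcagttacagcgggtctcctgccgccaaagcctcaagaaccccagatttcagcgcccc
Cd274: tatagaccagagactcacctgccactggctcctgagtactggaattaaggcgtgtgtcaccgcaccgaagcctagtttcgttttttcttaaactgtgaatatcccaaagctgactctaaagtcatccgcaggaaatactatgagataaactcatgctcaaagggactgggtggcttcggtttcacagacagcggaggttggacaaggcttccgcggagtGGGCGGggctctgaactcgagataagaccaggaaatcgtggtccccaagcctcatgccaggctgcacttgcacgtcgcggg
Cd80: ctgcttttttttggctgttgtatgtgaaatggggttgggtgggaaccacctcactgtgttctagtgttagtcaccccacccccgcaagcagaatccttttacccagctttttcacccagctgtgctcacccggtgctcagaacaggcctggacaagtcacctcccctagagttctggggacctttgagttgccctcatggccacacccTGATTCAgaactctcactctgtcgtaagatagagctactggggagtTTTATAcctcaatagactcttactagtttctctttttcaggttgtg
The capitals in Icosl and Cd274 are 1 GC box each (GGGCGG), and those in Cd80 are an AP-1 motif (TGANTCA) and a TATA box (TATAAA, here on the other strand). Both strands were searched, and none of the matches overlap. Of the 32851 promoter windows in the table, 35.7% hold a GC box, 7.81% this AP-1 motif and 13.6% a TATA box. A paired interferon regulatory factor motif (in 3.44% of all windows), an NF-kappaB motif (in 1.63%) and a STAT motif (TTCNNNGAA, in 8.3%) were also searched and are not in these 3 windows. A match is a description of the letters and was not tested as a binding site.

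The values are array intensities, given as log2(intensity + 16), which understates the change of dim probe sets. Probe sets with a mean log2 level under 6.49, the 40th percentile of all, were treated as low and not tested. This kept 15 of the 19 member probe sets and 9 of the 10 genes. Array medians lay between 110.6 and 183.2 intensity units, and pairs of arrays correlated between 0.886 and 0.974. Lymphocyte markers were present: all 10 of the T cell markers with a probe set and all 7 of the B cell markers with one passed the filter on low values, among them Cd3d at 11.47 and Cd79a at 13.08 (log2, mean of all arrays). These markers do not tell spleen from other lymphoid tissue. Arrays also fell into 3 clusters by the hybridisation controls added to every sample, called control clusters A (9 arthritic and 4 non-arthritic arrays), B (6 and 10) and C (3 and 4). These clusters were defined from the data and not by the labels, and 48.1% of all tested probe sets differed between them (limma, F test, adjusted p under 0.05), so values within clusters stand beside the pooled ones. Nothing in the labels says how the arrays were processed in groups. Arthritic replicate 8 and non-arthritic replicates 5 and 6 carried pancreas transcripts, and arthritic replicate 14 had a high ratio of the 3′ to the 5′ actin control, 2.74. Without the 3 former (0.873% of all tested probe sets called), or without the latter, limma again called 0 members between the groups.

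None of the members passed the test between arthritic and non-arthritic spleens. limma called 0 of the 15 member probe sets, against 0.0481% of all 27022 tested. At an unadjusted p under 0.05 there were 3 of 15 (both probe sets of Cd86 and 1 of Cd28), where 15.7% of all tested probe sets reached it. The difference was positive for 9 of the 15, and 50.9% of all tested probe sets were positive. The median difference of the 15 was 0.07 and that of all tested probe sets 0.003 (log2, arthritic minus non-arthritic). For the probe set that represents each gene, the one with its highest mean, the difference was positive in 7 of the 9 tested genes.

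**Figure D1:**
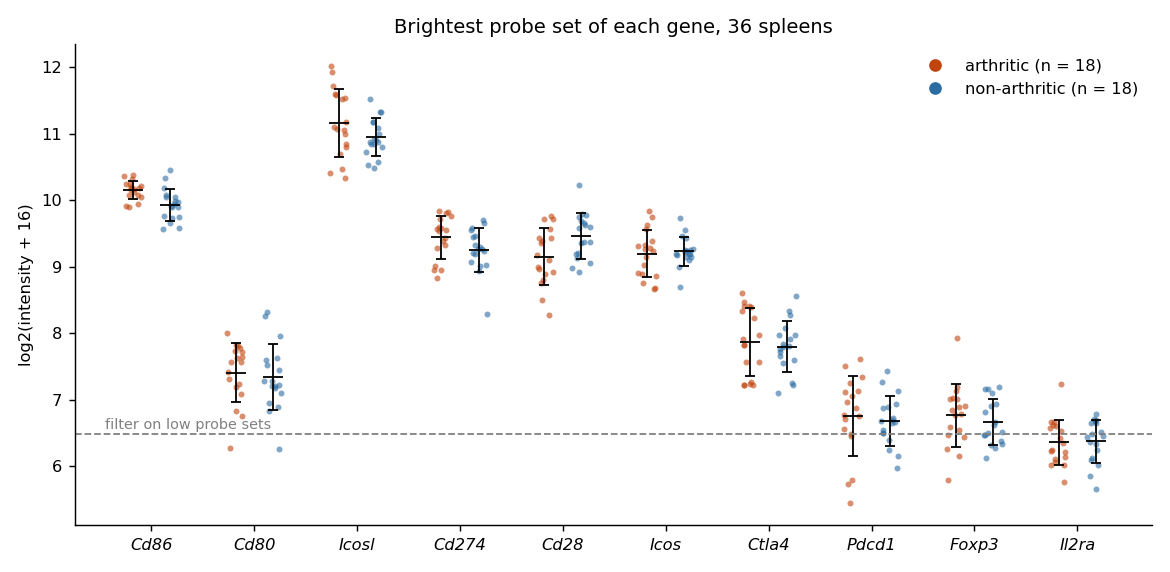
Level of each gene in every spleen, as log2(intensity + 16) of the probe set with the highest mean, for 18 arthritic (orange) and 18 non-arthritic (blue) mice; the points are arrays, the bars mean ± SD, and the dashed line is the filter on low probe sets at 6.49. Both groups overlap in every gene, Il2ra lies at the filter, and since probes differ in brightness the heights of different genes are not compared.

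Cd86, which activated B cells, dendritic cells and macrophages display to engage Cd28, had the smallest p of the members. On its main probe set (1420404_at, at the 84.7th percentile of mean signal) the 18 arthritic spleens ran from 936 to 1318 intensity units with a median of 1141. The 18 non-arthritic spleens ran from 742 to 1383 with a median of 961. The arthritic mice occupied the upper part of a range that the non-arthritic mice covered whole, with 16 of 18 arthritic arrays above the non-arthritic median. The log2 means were 10.15 ± 0.14 (SD, n = 18) and 9.93 ± 0.24 (SD, n = 18), a difference of 0.22 (SE 0.07, a 1.16-fold ratio, 95% interval 0.08 to 0.36), with a limma adjusted p of 0.128. Without non-arthritic replicate 5 the difference was 0.25 and the limma adjusted p 0.0485, with 0.925% of all tested probe sets called. It was the only array whose removal in turn brought a member past the threshold. Without the 3 arrays with pancreas transcripts, of which it is 1, the adjusted p was 0.0638.

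The Cd86 difference was not of one size within the control clusters. In cluster A the arthritic and non-arthritic means were 10.19 and 10.18, a difference of 0.009 (SE 0.11), in cluster B they were 10.13 and 9.88, a difference of 0.25 (SE 0.10), and in cluster C 10.11 and 9.83, a difference of 0.28 (SE 0.15). With the cluster as a block the difference was 0.17 (SE 0.07, limma adjusted p = 0.292). The test of whether the difference itself varied between clusters gave a limma adjusted p of 0.519 for this probe set.

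The other Cd86 probe set (1449858_at, 80.6th percentile) ran from 568 to 1445 intensity units in arthritic spleens, with a median of 816. In non-arthritic spleens it ran from 508 to 1479, with a median of 583. On this probe set the spleens fell into a high and a low set that followed the control clusters and not the disease label. The 13 arrays of cluster A had a log2 level of 10.30 ± 0.23 (SD), from 9.75 to 10.55, and the 23 arrays of clusters B and C had 9.29 ± 0.18 (SD), from 9.03 to 9.65, with no overlap, a separation that 0.988% of all tested probe sets showed. The fitted difference of cluster A from the rest, adjusted for group, was 0.95 (SE 0.07, limma adjusted p = 2.9e-13). The pooled difference between arthritic and non-arthritic means, 9.87 and 9.44, was 0.43 (SE 0.15, limma adjusted p = 0.171). It was 0.17 (SE 0.07) with the cluster as a block, where cluster A holds 9 of 18 arthritic and 4 of 18 non-arthritic arrays.

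**Figure D2:**
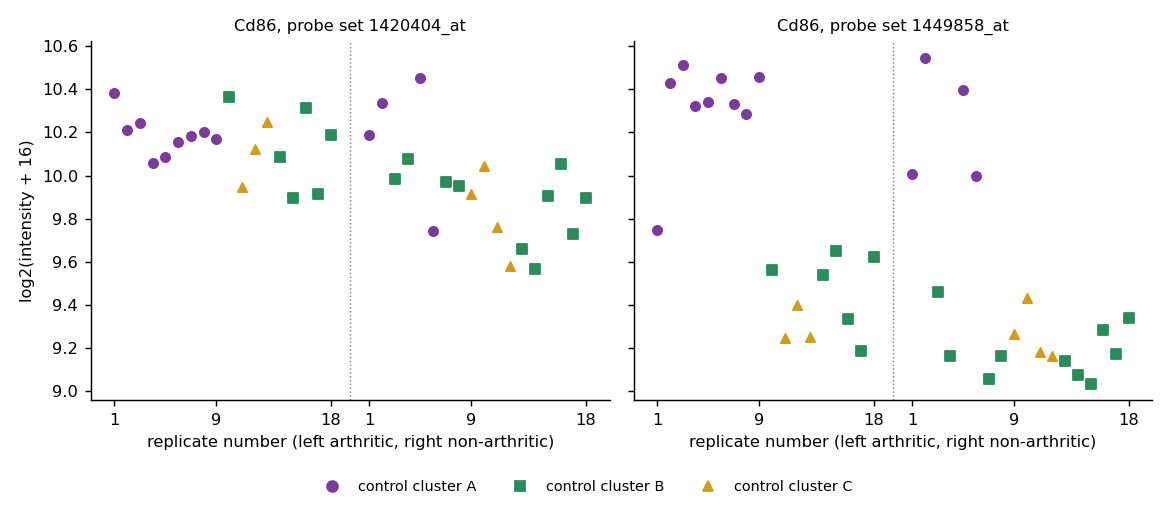
The 2 probe sets of Cd86 in each of the 36 spleens, arthritic to the left and non-arthritic to the right of the dotted line, as log2(intensity + 16), with the control cluster as colour and marker. On 1449858_at the 13 arrays of cluster A lie between 9.75 and 10.55 and the 23 others between 9.03 and 9.65, while on 1420404_at the clusters overlap.

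Cd80, the other ligand of Cd28 and Ctla4, had 4 probe sets, of which 2 passed the filter. The main one (1451950_a_at, 53.1st percentile) ran from 61.3 to 241.3 intensity units in arthritic spleens with a median of 174.7, and from 60.9 to 303.3 in non-arthritic spleens with a median of 136.5. The groups overlapped throughout. The log2 means were 7.41 ± 0.45 (SD, n = 18) and 7.34 ± 0.50 (SD, n = 18), a difference of 0.07 (SE 0.16, limma adjusted p = 0.863). The sign turned with the cluster as a block, to -0.12 (SE 0.13), and the differences within clusters A, B and C were -0.25, -0.27 and 0.41. The difference on the other tested probe set was -0.03 (SE 0.14).

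Icosl, the ligand of Icos, which B cells carry constitutively, gave arthritic intensities from 1274 to 4141 with a median of 2159 on its main probe set (1419212_at, 92.6th percentile). The non-arthritic range was 1411 to 2924 with a median of 1885. The highest arthritic spleens lay above every non-arthritic spleen and the lowest arthritic spleen lay below all of them. The log2 means were 11.16 ± 0.52 (SD, n = 18) and 10.95 ± 0.28 (SD, n = 18), a difference of 0.21 (SE 0.13, limma adjusted p = 0.426), and 0.35 (SE 0.12, limma adjusted p = 0.242) with the cluster as a block. The differences within clusters A, B and C were 0.02, 0.69 and 0.14. The second Icosl probe set (1426087_at) was dim, at 6.93 ± 0.50 and 6.84 ± 0.32 (SD, n = 18 each).

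Cd274, the ligand of Pdcd1, had 1 probe set (1419714_at, 77.2nd percentile). It ran from 441 to 905 intensity units in arthritic spleens with a median of 733, and from 297 to 815 in non-arthritic spleens with a median of 601. Of the arthritic arrays 14 of 18 lay above the non-arthritic median, with overlap over most of the range. The log2 means were 9.45 ± 0.32 and 9.25 ± 0.33 (SD, n = 18 each), a difference of 0.19 (SE 0.11, 95% interval -0.02 to 0.41, limma adjusted p = 0.371). Within clusters A, B and C it was -0.05, 0.49 and 0.05.

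On the T cell side Cd28 was the one member whose 95% interval lay below 0. Its main probe set (1417597_at, 76.8th percentile) ran from 295 to 853 intensity units in arthritic spleens with a median of 550. In non-arthritic spleens it ran from 470 to 1188 with a median of 702. Only 4 of 18 arthritic arrays lay above the non-arthritic median, although the ranges overlapped widely. The log2 means were 9.15 ± 0.43 and 9.46 ± 0.34 (SD, n = 18 each), a difference of -0.31 (SE 0.12, 95% interval -0.56 to -0.06, limma adjusted p = 0.222). It was -0.27 (SE 0.13) with the cluster as a block, and -0.45, -0.09 and -0.37 within clusters A, B and C. The other Cd28 probe set (1437025_at) had nearly the same mean in both groups, 8.59 ± 0.56 and 8.64 ± 0.38 (SD, n = 18 each), a difference of -0.05 (SE 0.15), which turned to 0.13 (SE 0.13) with the cluster as a block.

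Icos, induced on activated T cells and high on follicular helper cells, was measured by 3 probe sets with differences of -0.04 (SE 0.10), -0.08 (SE 0.17) and -0.01 (SE 0.15). On the main one (1436598_at, 75.7th percentile) arthritic spleens ran from 390 to 901 intensity units with a median of 593, and non-arthritic spleens from 397 to 833 with a median of 576. The medians nearly coincided, and the arthritic group was the more scattered, with log2 SDs of 0.36 and 0.22 (n = 18 each). With the cluster as a block the 3 differences were positive, 0.07 (SE 0.08) on the main probe set, and on that probe set they were -0.20, 0.31 and -0.01 within clusters A, B and C.

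Ctla4, the inhibitory counterpart of Cd28, ran from 133 to 373 intensity units in arthritic and from 122 to 360 in non-arthritic spleens (1419334_at, 58.9th percentile), with medians of 218 and 207. The log2 means were 7.87 ± 0.51 and 7.80 ± 0.38 (SD, n = 18 each), a difference of 0.07 (SE 0.15, 95% interval -0.23 to 0.37, limma adjusted p = 0.844). Its differences within clusters A, B and C were -0.16, 0.50 and 0.10. Neither group held the higher values over the whole range.

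Pdcd1 and Foxp3 lay just above the filter on low values, both at the 43.7th percentile. Pdcd1 ran from 27.7 to 180.7 intensity units in arthritic spleens with a median of 97.6, and from 47.0 to 157.7 in non-arthritic spleens with a median of 86.4. Foxp3 ran from 39.5 to 228.5 with a median of 96.8, and from 54.0 to 131.1 with a median of 78.8. Neither gene separated the groups: the differences were 0.07 (SE 0.17, limma adjusted p = 0.866) and 0.10 (SE 0.14, limma adjusted p = 0.761). Il2ra was low on both of its probe sets, with arthritic and non-arthritic means of 6.36 ± 0.34 and 6.38 ± 0.32 on 1 and of 6.19 ± 0.47 and 5.99 ± 0.71 on the other (SD, n = 18 each), so a difference in this gene was not tested. The 3 genes Foxp3, Pdcd1 and Il2ra were thus measured near or below the filter on low values. Why their signal was low was not tested.

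**Figure D3:**
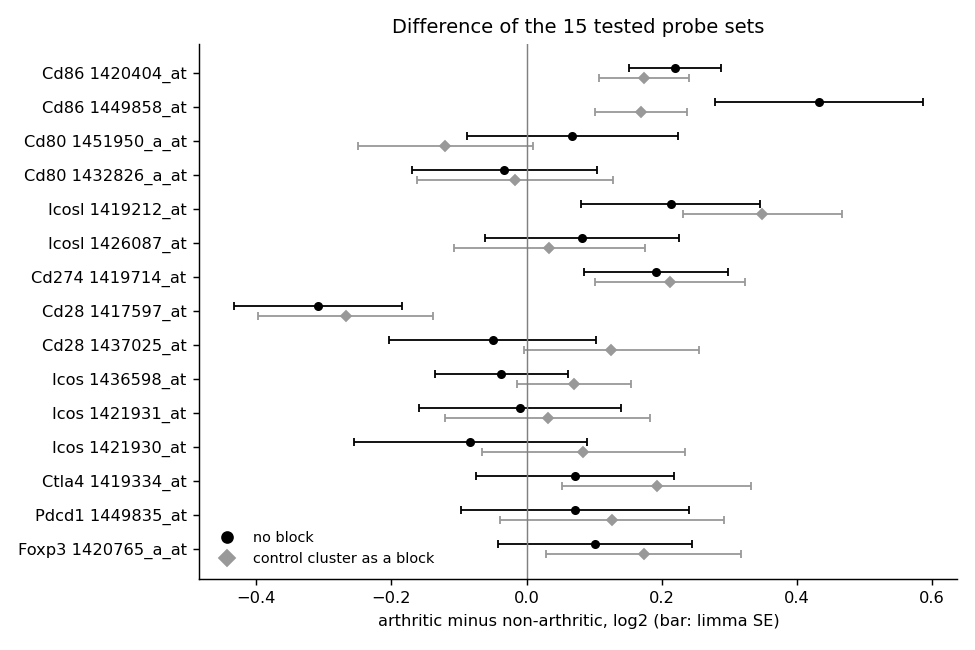
Difference between arthritic and non-arthritic means for the 15 tested member probe sets, in log2 units with limma standard errors as bars, without a block (black) and with the control cluster as a block (grey). Cd86 lies above 0 on both probe sets and Cd28 below 0 on 1417597_at, the block moves Cd86 1449858_at from 0.43 to 0.17 and Icosl 1419212_at from 0.21 to 0.35, and no probe set passed the adjusted threshold in either fit.

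Beside the Cd86 call without non-arthritic replicate 5, a member was called between the groups within control cluster B. There limma gave Icosl a difference of 0.69 (SE 0.15, limma adjusted p = 0.0278) between 6 arthritic arrays, from 11.10 to 12.02, and 10 non-arthritic arrays, from 10.54 to 11.52 (log2). The arthritic arrays were mostly the higher, with overlap. The arthritic arrays of this cluster also had the higher B cell score, from -0.05 to 0.51 with a mean of 0.29 against -0.36 to 0.12 with a mean of -0.15, and a lower erythroid score, with means of -0.58 and 0.15. Their part in the Icosl difference was not tested. Of all tested probe sets 2.73% were called in cluster B. An unadjusted p under 0.05 was reached there by 10 of the 15 member probe sets and 20.6% of all tested, and 13 of 15 members were positive. Leaving out single arrays of the cluster gave Icosl differences from 0.61 to 0.79, and the call was lost without arthritic replicate 14 (adjusted p = 0.0799), 15 (0.0620), 16 (0.0731) or 18 (0.0754). The loss was not particular to Icosl: over all tested probe sets 4, 5, 3 and 0 were called in these settings. Without arthritic replicates 10 and 17, 1174 and 2200 were called. In clusters A and C limma called 0 members, with 2 and 0 at an unadjusted p under 0.05, where 11.6% and 3.7% of all tested probe sets reached it. The difference of the effects between clusters did not pass for any member, where 0.037% of all tested probe sets passed, and for Icosl its limma adjusted p was 0.223.

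The study looked for subpopulations, so the spread of each member within the groups was compared too, on absolute deviations from the group median. limma called 0 members and 0 of all 27022 probe sets (0%). The deviation was greater in arthritic spleens for 12 of 15 members and for 57.1% of all tested probe sets. At an unadjusted p under 0.05 there were 3 of 15 members, where 7.66% of all tested probe sets reached it. These were Icos on 1421930_at, whose mean absolute deviation was greater in arthritic spleens by 0.36 (SE 0.11, limma adjusted p = 0.333), Icos on 1436598_at, greater by 0.15 (SE 0.06, limma adjusted p = 0.559), and Icosl, greater by 0.20 (SE 0.09, limma adjusted p = 0.568). The third Icos probe set (1421931_at) went the other way, with a deviation smaller in arthritic spleens, -0.11 (SE 0.10), so the probe sets of Icos disagree. The groups are split unequally over the control clusters. With the cluster as a block the 3 values were 0.39 (SE 0.11), 0.13 (SE 0.06) and 0.23 (SE 0.09), with limma adjusted p-values of 0.292, 0.527 and 0.425. The deviations were still taken from the group median, so this block cannot take out spread made by offsets between clusters. On 1436598_at the arthritic SD of Icos was 0.36 over all arrays and 0.23, 0.22 and 0.02 within clusters A, B and C. The non-arthritic SD was 0.22, and 0.09, 0.14 and 0.44 within the clusters.

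Member probe sets differed between the control clusters about as often as all probe sets did. limma's F test over the 3 clusters, adjusted for group, called 7 of the 15 member probe sets, beside 48.1% of all tested. Against clusters B and C, cluster A was higher in Cd86 on 1449858_at, as above, in Cd86 on 1420404_at by 0.17 (SE 0.07, limma adjusted p = 0.0447) and in Cd80 by 0.67 (SE 0.13, limma adjusted p = 9.8e-05), where 43.1% of all tested probe sets passed in this contrast, 24.8% higher and 18.3% lower in A. It was lower in Icos by 0.37 on 1436598_at (SE 0.09) and by 0.64 on 1421930_at (SE 0.16), in Icosl by 0.48 (SE 0.12), in Cd28 by 0.61 on 1437025_at (SE 0.13) and in Ctla4 by 0.42 (SE 0.14), with limma adjusted p-values from 0.00035 to 0.0167. Other probe sets of the same genes did not pass: the main one of Cd28 had -0.13 (SE 0.13), the third of Icos -0.11 (SE 0.16), the dim one of Icosl 0.21 (SE 0.15) and the other one of Cd80 -0.04 (SE 0.15), so a direction holds for the named probe sets and not for each gene as a whole. Other measures moved with the clusters: the T cell marker score in A, B and C was -0.24, 0.16 and 0.09, the monocyte and macrophage score 0.32, -0.23 and -0.06 (mean centred log2), and the ratio of the 3′ to the 5′ Gapdh control 0.751, 1.004 and 0.911. The stroma score was -0.72, 0.40 and 0.42, the dendritic cell score 0.20, -0.12 and -0.09, and the pancreas score 1.12, -0.60 and -0.71. The B cell score was nearly level, at -0.03, 0.02 and 0.02. Their part in the member differences was not tested. Among the 18 arthritic arrays alone 7 member probe sets were called (36.3% of all tested), and among the 18 non-arthritic arrays 2 (23.4%).

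Pairs of members were more often positively correlated from spleen to spleen than pairs of all tested genes, as a description with no test of that difference. After the mean of each group was subtracted, 30 of the 36 pairs of the 9 tested genes had a positive Pearson r over the 36 mice, and 12 passed a permutation test (100000 permutations within groups, two-sided, Benjamini-Hochberg adjusted over the 36 pairs), all 12 of them positive. Over all 77208951 pairs of the 12427 tested genes 50.7% were positive, and 6.85% reached r 0.42, the lowest r of those 12 pairs. With the means of the control clusters subtracted as well, 5 pairs passed, with r of 0.51 or more, which 1.85% of all pairs reached. The 36 pairs share 9 genes and the arrays share their scaling, so the pairs are not independent. Inside clusters A, B and C taken singly 6, 0 and 0 pairs passed, and 12, 3 and 6 had an unadjusted p under 0.05. The range of r was -0.28 to 0.62.

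**Figure D4:**
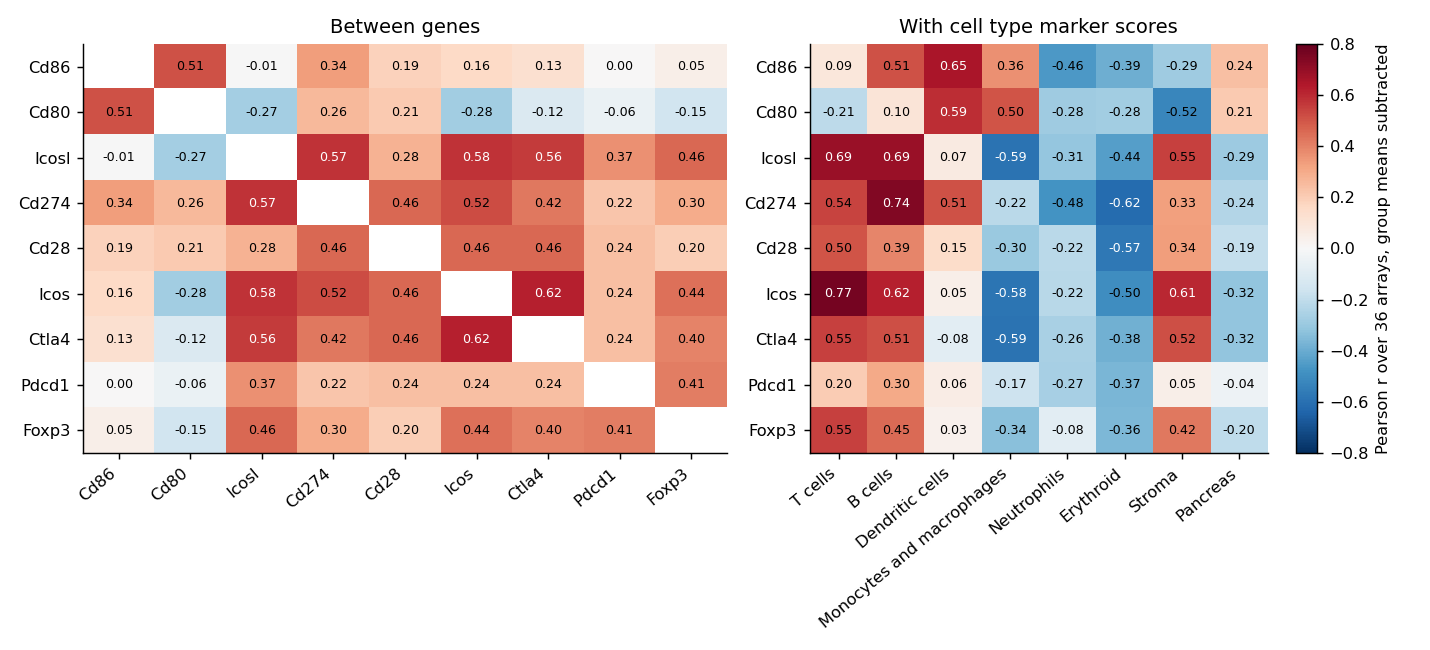
Pearson r between the 9 tested genes over 36 spleens, left, and between those genes and the marker scores of 8 kinds of cells and tissues, right, with group means subtracted, on a scale from blue (negative) to red (positive). On the left 30 of 36 pairs are positive and r runs from -0.28 to 0.62, and on the right Icos with T cells (0.77) and Cd274 with B cells (0.74) are the darkest squares.

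The 2 ligands Icosl and Cd274, both displayed by B cells and dendritic cells, were correlated with and without the control clusters taken into account. Pearson r was 0.57 (permutation p = 0.00025, adjusted p = 0.0045) and Spearman rho 0.62 (adjusted p = 0.0015), and r was 0.56 without the 2 spleens farthest from the median of Icosl. Within clusters A (n = 13), B (n = 16) and C (n = 7) it was 0.74, 0.35 and 0.71, and it was 0.54 with the cluster means subtracted (permutation, adjusted p = 0.0168). Spleens with more Icosl signal had more Cd274 signal in both groups, with r of 0.61 in arthritic and 0.58 in non-arthritic mice. The 2 genes lie on different chromosomes.

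Icos and Ctla4, neighbours on chromosome 1 and both carried by activated T cells, had the highest pooled r, 0.62 (permutation p = 9e-05, adjusted p = 0.0032; rho 0.64, adjusted p = 0.0015), and 0.66 without the 2 spleens farthest from the median of Ctla4. Within clusters A, B and C it was 0.50, -0.02 and 0.63. With the cluster means subtracted r was 0.38 and no longer passed (permutation, adjusted p = 0.094). Whether r differs between the clusters was not tested. Icos and Icosl, receptor and ligand, had a pooled r of 0.58 (permutation, adjusted p = 0.0094), with 0.22, -0.01 and 0.56 within clusters A, B and C and 0.21 with the cluster means subtracted (permutation, adjusted p = 0.346).

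Cd80, a ligand of Cd28 and Ctla4, and Cd274, a ligand of Pdcd1, are carried by the same presenting cells and showed the reverse. Their pooled r was 0.26 (permutation, adjusted p = 0.229), while within clusters A, B and C it was 0.61, 0.63 and 0.64. With the cluster means subtracted r was 0.61 (rho 0.58; permutation, adjusted p = 0.00504), the highest of the 36 pairs on that scale. Cluster A had higher Cd80 and similar Cd274 compared with the other clusters, so the clusters are offset from each other along the Cd80 axis. Beside Icosl with Cd274, the other pairs that passed on that scale were Cd80 with Cd28 (r 0.52, permutation, adjusted p = 0.0172), Cd86 with Icos (0.51, adjusted p = 0.0167) and Icos with Cd274 (0.51, adjusted p = 0.0275). Within clusters A, B and C these had r of 0.70, 0.47 and 0.44, of 0.28, 0.54 and 0.85, and of 0.54, 0.35 and 0.92. Of these 3, Icos with Cd274 had also passed in the pooled test, with r 0.52.

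The 2 ligands of Cd28, Cd86 and Cd80, had a pooled r of 0.51 (permutation, adjusted p = 0.0134; rho 0.40, adjusted p = 0.0495), with 0.76, -0.02 and 0.54 within clusters A, B and C. It was 0.35 with the cluster means subtracted (permutation, adjusted p = 0.246). Cd28 itself had a pooled r of 0.46 with each of Ctla4, Icos and Cd274 (permutation, adjusted p from 0.0286 to 0.0320), and none of the 3 passed with the cluster means subtracted. Icosl and Foxp3 also passed in the pooled test, with r 0.46 (permutation, adjusted p = 0.0320), and rho 0.41 (adjusted p = 0.0495), while r was 0.29 without the 2 spleens farthest from the median of Icosl, so the pooled r depends on those spleens. It was 0.77 in arthritic and -0.29 in non-arthritic mice, a difference that was not tested.

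**Figure D5:**
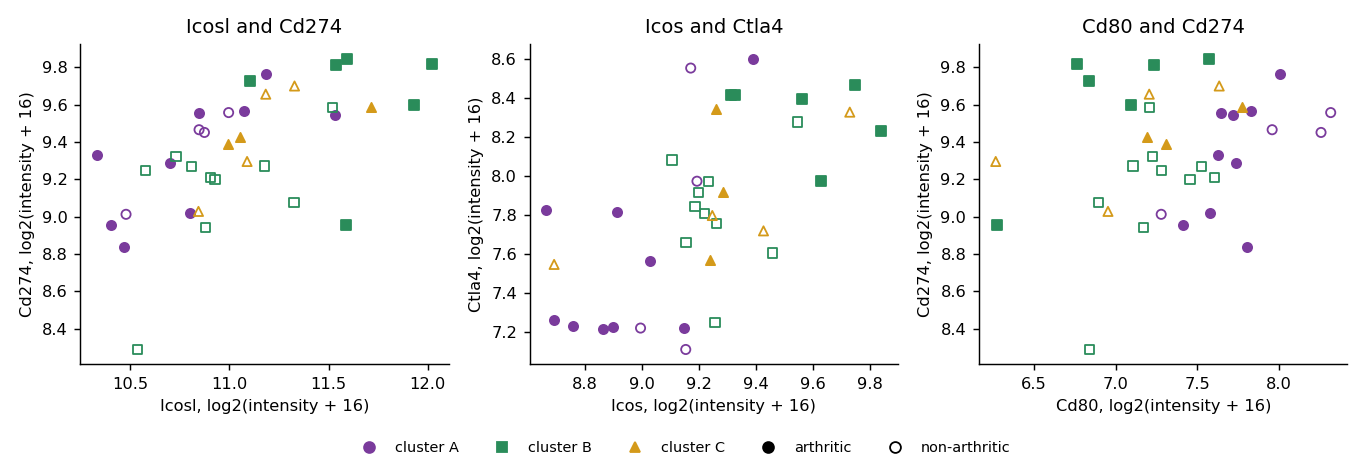
Levels of 3 pairs of genes in the 36 spleens, as log2(intensity + 16); colour and shape give the control cluster, filled symbols are arthritic and open symbols non-arthritic mice. In clusters A, B and C r is 0.74, 0.35 and 0.71 for Icosl and Cd274, 0.50, -0.02 and 0.63 for Icos and Ctla4, and 0.61, 0.63 and 0.64 for Cd80 and Cd274, where cluster A lies to the right of the others.

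Probe sets of 1 gene were compared with each other, and those of the members agreed in part. Of 13 pairs of probe sets from 1 gene, 4 passed the permutation test with group means subtracted (adjusted over the 13 pairs), and 0 passed with the cluster means subtracted. The pairs that passed were 2 of the 3 pairs of Icos (r 0.53 and 0.47), the pair of Cd28 (0.43) and the pair of Cd86. For Cd86 the spleens fall into separate sets on 1449858_at, so the value within clusters is the one to read: r in clusters A, B and C was 0.18, 0.24 and 0.70. The 2 probe sets of Icosl had r 0.08, those of Il2ra 0.05, and the 6 pairs of Cd80 lay between -0.09 and 0.22. The 7 member pairs in which both probe sets passed the filter had a median r of 0.43, and the 17360 such pairs of all genes a median of 0.18.

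The members were set beside marker scores of 8 kinds of cells and tissues, the mean of gene-centred log2 levels of each list. Of the 72 relations 32 passed the permutation test with group means subtracted (adjusted over the 72), 21 of them positive. With the cluster means subtracted 19 passed, and within clusters A, B and C 16, 2 and 0, with 22, 10 and 14 at an unadjusted p under 0.05. The share of all tested genes that would pass with these scores was not computed, so the counts are not read as a trait of the members. Icos followed the T cell score (r 0.77, rho 0.75, and r 0.61 with the cluster means subtracted, permutation, adjusted p = 0.0299). Foxp3 followed it with 0.55 and 0.47 (adjusted p = 0.0184), and Cd28 with 0.50 and 0.48 (adjusted p = 0.0345). Ctla4 had 0.55 and 0.32, which did not pass with the cluster means subtracted (adjusted p = 0.168). These genes also had positive r with the B cell score: 0.62 and 0.55 for Icos, 0.51 and 0.38 for Ctla4. It was 0.45 and 0.36 for Foxp3, and 0.39 and 0.32 for Cd28. Of these, only Icos passed with the cluster means subtracted (permutation, adjusted p = 0.0299), so its relation was not particular to the T cell score. Pooled r with the stroma score was 0.61 for Icos and 0.52 for Ctla4, and with the monocyte and macrophage score -0.58 and -0.59. These passed in the pooled form (permutation, adjusted p from 0.0026 to 0.0072). With the cluster means subtracted they were 0.19, 0.25, 0.04 and -0.34, and none passed. For Pdcd1 0 of 8 relations passed in either form, so it was the one receptor that followed no marker score. Within clusters A, B and C the r with the T cell score was 0.47, 0.30 and 0.96 for Icos, 0.38, 0.76 and 0.30 for Foxp3 and 0.82, -0.07 and 0.89 for Cd28.

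Of the ligands, Cd274 had the closest relation to the B cell score, with r 0.74 (rho 0.84) and 0.71 with the cluster means subtracted (permutation, adjusted p = 0.00054), and 0.80, 0.61 and 0.85 within clusters A, B and C. Its r with the dendritic cell score was 0.51 and 0.67, and with the erythroid score -0.62 and -0.70. Icosl had r 0.69 with the B cell score (rho 0.69) and 0.66 with the cluster means subtracted (permutation, adjusted p = 0.00103), and 0.88, 0.47 and 0.59 within the clusters. With the T cell score Icosl also had r 0.69, and 0.49 with the cluster means subtracted (permutation, adjusted p = 0.0185). Cd274 had 0.54 and 0.58 with that score (permutation, adjusted p = 0.00278 with the cluster means subtracted). Cd86 had r 0.65 with the dendritic cell score and 0.51 with the B cell score, and 0.51 and 0.62 with the cluster means subtracted. With the dendritic cell score its r was 0.54, 0.54 and 0.39 within clusters A, B and C. Cd80 had r 0.59 with the dendritic cell score, which was 0.43 and no longer passed with the cluster means subtracted (permutation, adjusted p = 0.0516). Its r with the erythroid score was -0.28 (permutation, adjusted p = 0.146), and -0.73 with the cluster means subtracted (adjusted p = 0.00054), with -0.91, -0.76 and -0.55 within the clusters. Spleens with a higher erythroid score thus had less Cd274 signal and, relative to their cluster, less Cd80 signal. This was not particular to these ligands. The negative r with the erythroid score passed in both forms for Cd28 (-0.57 and -0.57) and Icos (-0.50 and -0.41). It passed in the pooled form alone for Cd86 (-0.39) and Icosl (-0.44), and in neither form for Ctla4, Pdcd1 and Foxp3. Pooled r with the stroma score was 0.55 for Icosl and -0.52 for Cd80, and with the monocyte and macrophage score -0.59 and 0.50. These passed in the pooled form (permutation, adjusted p from 0.0045 to 0.0048). With the cluster means subtracted they were 0.12, 0.11, -0.14 and -0.22, and none passed. Between the groups the B cell score ranged from -0.46 to 0.51 in arthritic and from -0.45 to 0.33 in non-arthritic spleens, with means of 0.06 and -0.06, and the dendritic cell score from -0.30 to 0.49 and from -0.49 to 0.62, with the same means to 2 decimals. Their part in the Cd86 and Cd274 differences was not tested.

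The genes whose pattern was most like each member, by Pearson r over the 36 mice with group and cluster means subtracted, are given as a description with no test. The 36 spleens share array type and scaling. Icos was most like Zap70 (r 0.76), the kinase at the T cell receptor, Bcl11b (0.74), a transcription factor of T cell development, and Thy1 (0.74), a T cell surface protein that is also in the T cell list. Cd274 was most like Bcar3 (0.82), Plxnc1 (0.81), a semaphorin receptor, and Irf5 (0.81), an interferon regulatory factor of myeloid and B cells. Cd86 was most like Slc12a7 (0.80), a potassium chloride cotransporter, Ddx54 (0.76), an RNA helicase, and Ifi30 (0.75), a thiol reductase of antigen processing. With only group means subtracted Ddx54 had r 0.05 with Cd86.

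Cd28 was most like Phxr4 (0.83), Traf1 (0.79), an adaptor of TNF receptors, and Cdc37l1 (0.79). Icosl was most like Trim7 (0.79), 4833438C02Rik (0.77) and Cnot2 (0.75), a subunit of the deadenylase complex. Cd80 was most like Med11 (0.69), a Mediator subunit, A630026N12Rik (0.68) and Ms4a1 (0.66), which encodes the B cell protein CD20. Ctla4 was most like Abca5 (0.72), Scara3 (0.71) and Fam114a1 (0.68). The closest genes of Foxp3 were Arpc2 (0.67), Git2 (0.66) and Atp11b (0.63), and those of Pdcd1 were Insl6 (0.66), Casp4 (0.65) and Gtf2ird1 (0.65).

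A further 70 genes of the same pathways were examined by list. On the array were 62, of which 55 passed the filter. limma called 0 of the 55 between the groups, beside 0.0481% of all tested probe sets. An unadjusted p under 0.05 was reached by 12 of the 55 and by 15.7% of all tested probe sets. Of the differences 33 were positive and 22 negative, where 50.9% of all tested probe sets were positive. The median was 0.01 (all tested probe sets 0.003). Like the members, none of these genes was called singly in this test without a block, and the lists were not tested as groups.

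Among 14 tested inhibitory and other coreceptors, 8 differences were positive and 6 negative, with a median of 0.13. Havcr2, which encodes the inhibitory receptor TIM-3 of T cells and myeloid cells, was at 8.62 (mean log2) with a difference of 0.39 (SE 0.10, limma adjusted p = 0.0857), and 0.09, 0.61 and 0.28 within clusters A, B and C. Btla, an inhibitory receptor abundant on B cells, was at 12.22 with a difference of 0.32 (SE 0.09, limma adjusted p = 0.0882), and 0.36, 0.53 and 0.009 within the clusters. Their adjusted p-values were below those of all members. Cd200, a ligand that restrains myeloid cells, differed by -0.20 (SE 0.09) and Cd48, an adhesion molecule of the SLAM family, by 0.19 (SE 0.10).

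Of 8 tested costimulators of the TNF family 5 were positive, with a median of 0.09. The smallest p belonged to Cd40, through which helper T cells activate B cells and dendritic cells, with a difference of 0.29 (SE 0.11, unadjusted p 0.0093, not passing in limma after adjustment). Tnfsf14 differed by 0.18 (SE 0.16), Cd27 by -0.14 (SE 0.12) and Tnfrsf18 (GITR) by 0.11 (SE 0.09). Of 13 tested regulatory T cell and interleukin 2 genes 8 were positive, with a median of 0.01. Entpd1 (CD39), an ectonucleotidase of regulatory T cells and B cells, differed by 0.30 (SE 0.11, limma adjusted p = 0.185), Foxo1, a transcription factor that keeps lymphocytes quiescent, by -0.29 (SE 0.13), Foxo3 by -0.23 (SE 0.15) and Il2rb by 0.13 (SE 0.10). None of these passed.

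Of 16 tested genes of signalling from Cd28, 9 were positive, and the median was 0.01. An unadjusted p under 0.05 was reached by 6 of them, where 15.7% of all tested probe sets reached it. The 4 with the smallest p were Grb2, an adaptor that binds the tail of Cd28, with 0.17 (SE 0.06, limma adjusted p = 0.155), Pik3r1, a regulatory subunit of phosphoinositide 3-kinase, with -0.17 (SE 0.07), Ptpn6 (SHP-1), a phosphatase that restrains receptor signalling, with 0.21 (SE 0.09), and Rel, an NF-kappaB subunit, with 0.27 (SE 0.11). Of the 4 genes of the traffic of Ctla4 between the membrane and endosomes, 3 were positive and 0 had an unadjusted p under 0.05. Lrba, which protects Ctla4 from degradation, differed by -0.06 (SE 0.06).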

How the data were processed

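Spleen RNA was extracted with Trizol, biotin labelled and hybridised to 1 Affymetrix array per mouse, per the labels. The deposited values are linear probe set intensity. The submitters' processing notes name MAS5, with no version in these sources. Every array has a trimmed mean of 500.0 with 2% of the probe sets taken off each end, as 1 scaling factor per array gives, and such scaling leaves differences in array shape in place. No depth applies to arrays, and their number limits the precision. The groups are those of the sample titles. The animal number in the design text does not match the group sizes it gives, so the 36 labelled arrays were used.

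Values were analysed as log2(value + 16). The 64 control probe sets and those with a mean below the 40th percentile were left out, which left 27022 of 45037. Platform annotation names 1 gene for 34945 probe sets, several for 932 and none for 9160, and 34741 matched a gene of the RefSeq table (assembly GRCm38.p6) by identifier. For each gene the probe set of highest mean stands for it. limma 3.58.1 in R 4.3.3 (lmFit, eBayes with trend, Benjamini-Hochberg over the 27022 probe sets, threshold 0.05) gave the tests, and correlations used 100000 permutations within groups in Python 3.11.15 with numpy 2.4.6, pandas 2.3.3, scipy 1.17.1 and matplotlib 3.10.9. Control clusters are Ward clusters (3) of 18 hybridisation control probe sets, a choice made after an earlier analysis had seen these data. The tests were checked on simulated data. For the test between the groups and the correlations, the simulated noise was independent and held no control clusters. Those checks therefore do not cover the effect of the clusters.

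Named genes are all members, up to 4 genes per further list with the smallest unadjusted p, and the 3 genes most like each tested member. The members, the lists and the markers were chosen with earlier results of these data known. Alternatives were the pseudocount, quantile normalization, the filter, the variance trend, the replicate number and the control cluster as blocks, each cluster alone, and leaving out each array. Leaving out the arrays with pancreas transcripts or the high actin ratio, and the settings for the cluster tests, were added after seeing the data. Nothing in the labels beyond the individual animal says that arrays are separate preparations, so p-values measure the spread between these mice and arrays.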

Additional observations from a re-analysis of the deposited data

How the results depend on the processing

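Between arthritic and non-arthritic spleens limma called 0 members under pseudocounts of 1 and 64, quantile normalization, no filter, a filter at the 60th percentile, no variance trend, either block, and without the pancreas arrays or the high actin array. On leaving out each array in turn the count was 0 to 1, the Cd86 difference 0.20 to 0.25 (limma adjusted p = 0.0485 to 0.195) and the Cd28 difference -0.34 to -0.26. Over all probe sets the count of 13 was 0 without the filter, without the trend or with the cluster block, 1 with quantile normalization or without the high actin array, 21 with the 60th percentile, 236 without the pancreas arrays, 369 with the replicate block, 738 within cluster B, 0 within A or C, and 0 to 389 on leaving out single arrays. Differences that turned sign were Cd80, to -0.12 with the cluster block and -0.25 and -0.27 within A and B, Icos, to 0.070 with the block and 0.31 within B, Ctla4, to -0.16 within A, Pdcd1, to -0.30 within A and -0.12 within C, Cd274, to -0.054 within A, and Foxp3, to -0.050 within A and -0.068 within C. Within A 2 of 9 genes were positive, against 7 of 9 over all arrays. The cause was not tested.

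Correlated member pairs numbered 12, and 5 with cluster means subtracted, 6 within A, 0 within B and 0 within C, where fewer arrays enter. The probe set pairs of 1 gene that passed went from 4 to 0 with cluster means subtracted, and the marker relations from 32 to 19, and to 16, 2 and 0 within A, B and C. The member probe sets that differed between clusters went from 7 to 2 among non-arthritic arrays alone. The Icosl difference within B was 0.61 to 0.79 on leaving out each of its arrays.

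Nothing in the labels says that same-numbered arthritic and non-arthritic arrays are pairs. Their correlations ran from -0.23 to 0.47 with a median of 0.15, and 11 of 18 exceeded 0.1. In 11 of 18 pairs both arrays lay in the same control cluster, and 2 of 18 arthritic arrays were most like their own number. Whether the number marks a step that the arrays shared was not tested, and the main test leaves it out. With the replicate block limma called 0 members (Cd86 adjusted p = 0.0650 and 0.0531 on its 2 probe sets) and 2 of the further genes, Havcr2 and Btla (both adjusted p = 0.0417), where it had called 0.

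Il2ra lay below the filter and was not tested, and Pdcd1 and Foxp3 lay just above it, with standard errors of 0.17 and 0.14.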
